A study of Mus musculus with 16 samples.

Results

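The 10 genes described here encode the keratins of the layered epidermis between hair follicles. They are Krt5, Krt14 and Krt15 of the basal layer and Krt1, Krt10, Krt2, Krt24, Krt77, Krt78 and Krt80 of the layers above it or of their appendages. They were chosen by gene symbol and are 10 of the 19439 genes listed in at least 1 of 16 libraries. All 10 were listed in every library and passed the filter on low counts. The mice were of the BALB/c strain, 8 weeks of age, and RNA was sequenced from their ear skin. All received imiquimod, a cream that activates Toll-like receptor signalling and gives psoriasis-like inflammation. Each mouse also received injections of 10 µl into the ear skin, planned daily over 6 days, of either saline vehicle or LPC at 10 mM. The labels do not spell LPC out, and it is taken here as lysophosphatidylcholine. Mice of either treatment were killed on day 4 or on day 7, which makes 4 groups of 4 mice, named by treatment and day of killing. Mice killed on day 4 had not completed the planned injections, and no mice without imiquimod or without injections were analysed here.

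Keratins are the intermediate filament proteins of epithelial cells. Each filament is built from pairs of an acidic type I and a basic type II chain, so that Krt14 partners Krt5 in the dividing basal layer and Krt10 partners Krt1 once a keratinocyte leaves that layer and starts to differentiate. Krt2 replaces much of Krt1 in the upper layers of mouse ear, tail and sole skin, where it also partners Krt10. In wounded or inflamed epidermis, keratinocytes above the basal layer make Krt6a, Krt6b, Krt16 and Krt17 instead, the alarmin or wound keratins.

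Total expected counts (read numbers estimated by the authors' quantification) lay between 18704197 and 20131513 per library. Of the genes listed, 15782 were tested and 3657 were removed for low counts. Several libraries stood apart within their groups, each being 1 mouse. Vehicle day 4 mouse 3 and vehicle day 7 mouse 4 had the lowest neutrophil score (the mean log2 CPM of 9 neutrophil genes, CPM being expected counts put on a common library total), 0.85 and 2.05, against 4.42 to 4.71 and 4.51 to 4.96 in the other mice of their groups. Among LPC day 7 mice, mice 2 and 4 had skeletal muscle scores of 9.35 and 9.83, against 5.23 and 3.84 for mice 1 and 3. Macrophage scores split the same mice, at 7.53 and 6.80 against 4.83 and 4.69. The pan-epithelial score, from 16 genes shared by epithelial cells, lay between 5.33 and 6.53 in all 16 libraries. In whole skin, fewer cells of a type and less RNA per cell cannot be told apart.

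Levels per transcript length are given first, as the authors' deposited FPKM, in which fragment numbers are corrected for transcript length and sequencing depth. Krt14, the basal type I keratin (GRCm38 chr11:100203162-100207548), had the highest mean FPKM of the 10 in every group, from 4803 ± 681 (SD, n = 4) in vehicle day 4 to 8445 ± 2879 (SD, n = 4) in vehicle day 7. Its partner Krt5 (chr15:101707070-101712898) was below it in all 16 libraries, at 0.309 to 0.565 of the Krt14 FPKM. In vehicle day 7 skin the next mean FPKM values were Krt10 at 3685 ± 396, Krt5 at 3581 ± 1231 and Krt1 at 3110 ± 1617, which differed by less than their SDs. Krt2 followed at 1627 ± 1984, with an SD above its mean. Krt15, a basal and follicle stem cell keratin, had 236 ± 147, and Krt80, a late differentiation keratin, had 73.5 ± 17.8. Krt78, a suprabasal type II keratin, had 27.9 ± 5.28, Krt77 (a type II keratin known from human sweat ducts and mouse suprabasal epidermis) had 23.0 ± 22.3, and Krt24, a type I keratin of scattered differentiating cells, had 9.81 ± 17.1. In LPC day 7 skin the order behind Krt14 was Krt5 at 3048 ± 965, Krt1 at 950 ± 510 and Krt10 at 740 ± 454, and Krt2 stood sixth at 71.5 ± 88.2.

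**Figure D1:**
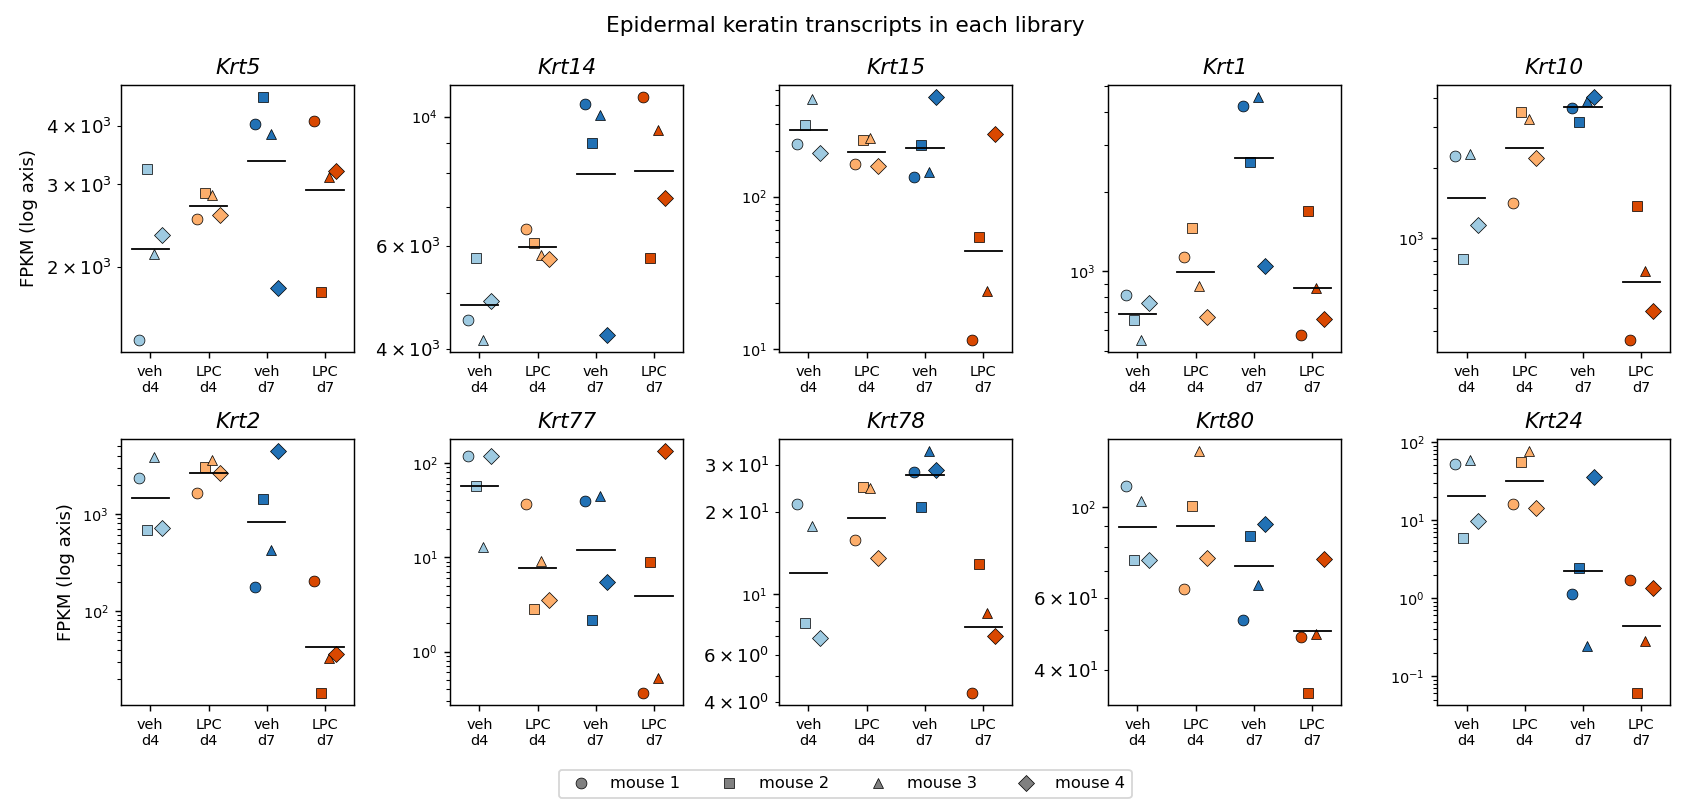
FPKM of each of the 10 keratins in each library (log axes), by group, with 1 point per mouse and a bar at the mean of log2 FPKM of each group (d4 and d7, days 4 and 7; veh, vehicle). The 4 LPC day 7 mice lie below the 4 vehicle day 7 mice for Krt10 and Krt78, and Krt2 in all LPC day 7 mice lies below every day 4 mouse.

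As shares of the summed FPKM of the 10 genes, Krt14 made up 41.4% ± 8.84 with vehicle and 39.4% ± 6.22 with LPC on day 4, and 39.5% ± 9.11 with vehicle and 61.7% ± 6.30 with LPC on day 7 (SD, n = 4 each). All 4 LPC day 7 mice, at 53.5% to 67.0%, were above all 12 other mice, whose highest share was 49.6%. The share of Krt10 was 18.2% ± 4.60 in vehicle day 7 and 6.08% ± 4.73 in LPC day 7. The Krt2 share was 15.2% ± 10.7 and 17.6% ± 3.83 in the day 4 groups, 9.25% ± 12.6 in vehicle day 7 and 0.479% ± 0.524 in LPC day 7. Shares of one sum are not independent of each other, and no test was made of them. Together the 10 genes took 2.35% ± 0.371 of all expected counts with vehicle and 3.13% ± 0.496 with LPC on day 4, and 4.20% ± 0.537 with vehicle and 2.47% ± 0.430 with LPC on day 7.

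**Figure D2:**
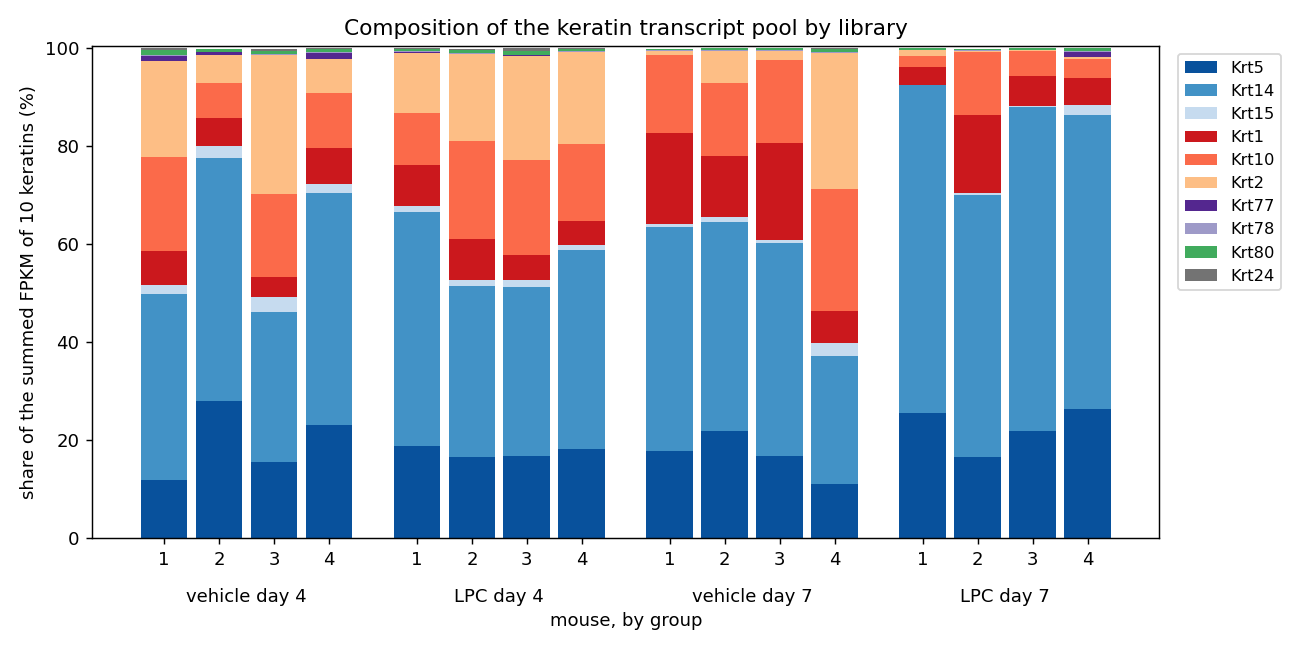
Share of each keratin in the summed FPKM of the 10 keratins (vertical axis, %), with 1 bar per mouse. Blue segments are basal keratins, and Krt14 takes 53.5% to 67.0% of the LPC day 7 bars, whereas the Krt2 segment is at most 1.26% there.

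The genes lie in the 2 keratin clusters of the mouse genome, all on the minus strand. The type I genes Krt24, Krt10, Krt15 and Krt14 lie on chromosome 11, and the type II genes Krt80, Krt5, Krt2, Krt1, Krt77 and Krt78 on chromosome 15. Promoters of 7 members were found in the RefSeq table (GRCm38.p6), and Krt1, Krt15 and Krt80 were not. The 250 bases before the start of Krt10, Krt2 and Krt24 are shown because these 3 members fell with time in LPC skin, with that of Krt5, a basal gene that was not called in any comparison, beside them. They run 5′ to 3′ on the gene's strand, and capitals mark a match on either strand to TATATAA, to the AP-1 motif TGANTCA or to CACCC, which Krüppel-like factors bind. The positions are chr11:99389365-99389614 for Krt10, chr15:101818170-101818419 for Krt2, chr11:99285263-99285512 for Krt24 and chr15:101712906-101713155 for Krt5.
Krt10: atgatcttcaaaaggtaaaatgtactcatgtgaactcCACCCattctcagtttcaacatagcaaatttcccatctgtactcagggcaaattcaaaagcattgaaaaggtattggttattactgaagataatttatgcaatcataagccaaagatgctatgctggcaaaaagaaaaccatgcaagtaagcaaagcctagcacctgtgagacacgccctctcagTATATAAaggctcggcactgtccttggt
Krt2: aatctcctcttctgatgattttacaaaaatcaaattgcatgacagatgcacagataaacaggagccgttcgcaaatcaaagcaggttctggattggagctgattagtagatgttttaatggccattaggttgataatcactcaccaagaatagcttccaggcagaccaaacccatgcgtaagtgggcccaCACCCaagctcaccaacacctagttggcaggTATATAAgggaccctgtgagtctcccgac
Krt24: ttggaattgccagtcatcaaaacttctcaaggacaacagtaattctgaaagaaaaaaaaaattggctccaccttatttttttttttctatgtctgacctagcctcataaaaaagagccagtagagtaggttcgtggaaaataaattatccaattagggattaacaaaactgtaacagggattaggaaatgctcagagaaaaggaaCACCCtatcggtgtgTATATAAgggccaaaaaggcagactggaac
Krt5: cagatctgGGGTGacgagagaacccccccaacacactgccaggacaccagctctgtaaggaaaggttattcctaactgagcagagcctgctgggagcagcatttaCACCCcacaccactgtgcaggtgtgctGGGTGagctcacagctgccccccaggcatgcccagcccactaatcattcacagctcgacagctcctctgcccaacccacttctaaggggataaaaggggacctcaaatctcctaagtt
TATATAA, a form of the TATA box picked after the sequences were seen, begins 28, 29 and 30 bases before the start of Krt10, Krt2 and Krt24 and is in none of the 4 other promoters found, Krt5, Krt14, Krt77 and Krt78. It occurs in 3.04% of all 32851 promoters of this length. Because the letters were picked in this way, the split between these members is no test. Krt77, which was not called, holds the near form tatatata close to its start, and Krt5 and Krt78 hold ggataaaag close to theirs. CACCC occurs once in the windows of Krt10, Krt2 and Krt24, 3 times in that of Krt5 and in 52.0% of all promoters, and TGANTCA, in 6.75% of all promoters, is in none of the 7. The Krt14 window, chr11:100206031-100206280, lies inside the gene as GENCODE annotates it (chr11:100203162-100207548, minus strand). It is not the stretch before that gene start, so its lack of TATATAA and TGANTCA says nothing of that stretch. These matches describe letters in the windows and no site was tested.

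The comparison of LPC with vehicle on day 7 asks how the repeated injection left the epidermal keratins at the later time. The 4 suprabasal keratins Krt10, Krt78, Krt2 and Krt1 were lower in LPC skin, and the basal keratins Krt5 and Krt14 showed no called difference. Of all 15782 genes tested, 1.44% were called lower in this comparison, against 4 of the 10 keratins, and none of the 10 was called higher (2.38% of all genes). The members were chosen with earlier results of these data known, so these shares are no test of the set. A gene was called at an adjusted p below 0.05 by edgeR's quasi-likelihood test over all genes with Benjamini-Hochberg adjustment, fitted to all 16 libraries. None of the 4 calls held when the libraries were scaled to the pan-epithelial genes or when only these groups entered the fit. Krt10 then differed by −1.99 (edgeR adjusted p = 0.085) and by −2.22 (0.054). Few genes of any kind were called in these settings, 36 and 45 in all, against 604 in the fit reported.

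Krt10 (Entrez 16661, chr11:99385254-99389364), the main type I keratin of differentiating cells, had 7951, 6598, 8528 and 8100.2 CPM in vehicle mice 1 to 4. In LPC mice 1 to 4 it had 937, 2954, 1626 and 1082 CPM. The groups did not overlap, as held for 5.16% of all genes in the lower direction, and the highest LPC mouse was mouse 2. Krt10 fell by 2.24 ± 0.42 on the log2 scale (SE, n = 4 and 4), 4.72-fold, with an adjusted p of 0.015 in edgeR's quasi-likelihood test. It stayed called with each of the 8 mice left out in turn.

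Krt78 (Entrez 332131, chr15:101946001-101954287), a less abundant type II keratin of suprabasal cells, had 100.3, 71.3, 120.0 and 93.2 CPM in vehicle mice. It had 18.1, 44.8, 31.1 and 25.4 CPM in LPC mice, again without overlap and again highest in LPC mouse 2. It fell by 1.69 ± 0.37 on the log2 scale (edgeR adjusted p = 0.028), and was called with 4 of the 8 mice left out. The call was lost without vehicle mice 3 or 4 or LPC mice 1 or 3, where the adjusted p reached 0.083.

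Krt1 (Entrez 16678, chr15:101845426-101850794), the type II partner of Krt10, had 10743, 6318, 11565 and 2437 CPM in vehicle mice 1 to 4. In LPC mice it had 1711, 4193, 2262 and 1716 CPM. Vehicle mouse 4 and LPC mouse 2 made the groups overlap. Krt1 fell by 1.65 ± 0.43 on the log2 scale (edgeR adjusted p = 0.046), close to the threshold. The call held only without vehicle mouse 4 (−1.95, adjusted p = 0.040) or LPC mouse 2 (−2.05, adjusted p = 0.028), and with any of the 6 other mice left out the adjusted p was above 0.05, up to 0.12.

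Krt2 (Entrez 16681, chr15:101810689-101818169), the type II keratin of the upper layers, varied most among the abundant members. Vehicle mice 1 to 4 had 481, 3653, 1150.2 and 11000.5 CPM. LPC mice 1 to 4 had 635, 36.7, 89.8 and 99.8 CPM, so that LPC mouse 1 lay above vehicle mouse 1 and the groups overlapped. Krt2 fell by 4.24 ± 1.06 on the log2 scale, 18.9-fold (edgeR adjusted p = 0.040). Of the 8 single omissions, the call held only without vehicle mouse 1 (−4.61, adjusted p = 0.032) or LPC mouse 1 (−5.75, adjusted p = 0.040), and without vehicle mouse 4 the difference shrank to −3.03 (adjusted p = 0.14).

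The basal pair differed little between the group means. Krt14 (Entrez 16664) had 17518, 14289.7, 16569 and 5719.5 CPM in vehicle mice and 21155, 8494, 16579.7 and 12625 CPM in LPC mice. Krt5 (Entrez 110308) had 9141, 9960.5, 8678 and 3703 CPM in vehicle mice and 10814, 3882, 7198 and 7362 CPM in LPC mice. Vehicle mouse 4 and LPC mouse 2 were the lowest of their groups for both genes. The log2 differences were 0.12 ± 0.33 for Krt14 and −0.11 ± 0.34 for Krt5 (edgeR adjusted p = 0.89 and 0.91), and their SEs leave room for differences of either sign.

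Krt15 (Entrez 16665, chr11:100131758-100135928) had 236, 367, 254 and 723 CPM in vehicle mice. It had 23.7, 92.7, 43.4 and 462 CPM in LPC mice, of which mice 1 to 3 lay below every vehicle mouse and mouse 4 did not. The log2 difference was −1.35 ± 0.69 (edgeR adjusted p = 0.30), and without LPC mouse 4 it was −2.89 (adjusted p = 0.012). Krt15 is also expressed in hair follicles, and the score of 12 follicle stem cell and infundibulum genes was 4.76 to 6.01 in LPC and 5.31 to 6.09 in vehicle mice on day 7. Its part in the Krt15 values was not tested.

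The 3 remaining members were not called on day 7. Krt24 (Entrez 75706, chr11:99279959-99285262) had 1.98, 4.02, 0.422 and 56.0 CPM in vehicle mice and 3.43, 0.1004, 0.489 and 2.34 CPM in LPC mice, a log2 difference of −3.31 ± 1.33 (edgeR adjusted p = 0.18) that shrank to −0.45 without vehicle mouse 4. Krt77 (Entrez 406220, chr15:101858731-101869705) had 71.4, 3.66, 80.7 and 9.05 CPM in vehicle mice. It had 0.783, 15.3, 0.924 and 251 CPM in LPC mice, so that mouse 4 alone held nearly all of it, and the log2 difference was 0.70 ± 1.43 (edgeR adjusted p = 0.85). Krt80 (Entrez 74127, chr15:101347444-101370162), with 162 to 254 CPM in vehicle and 105 to 232 CPM in LPC mice, differed by −0.39 ± 0.27 on the log2 scale (edgeR adjusted p = 0.47). Over the 10 members the median log2 difference was −1.50, against 0.02 over all genes tested.

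**Figure D3:**
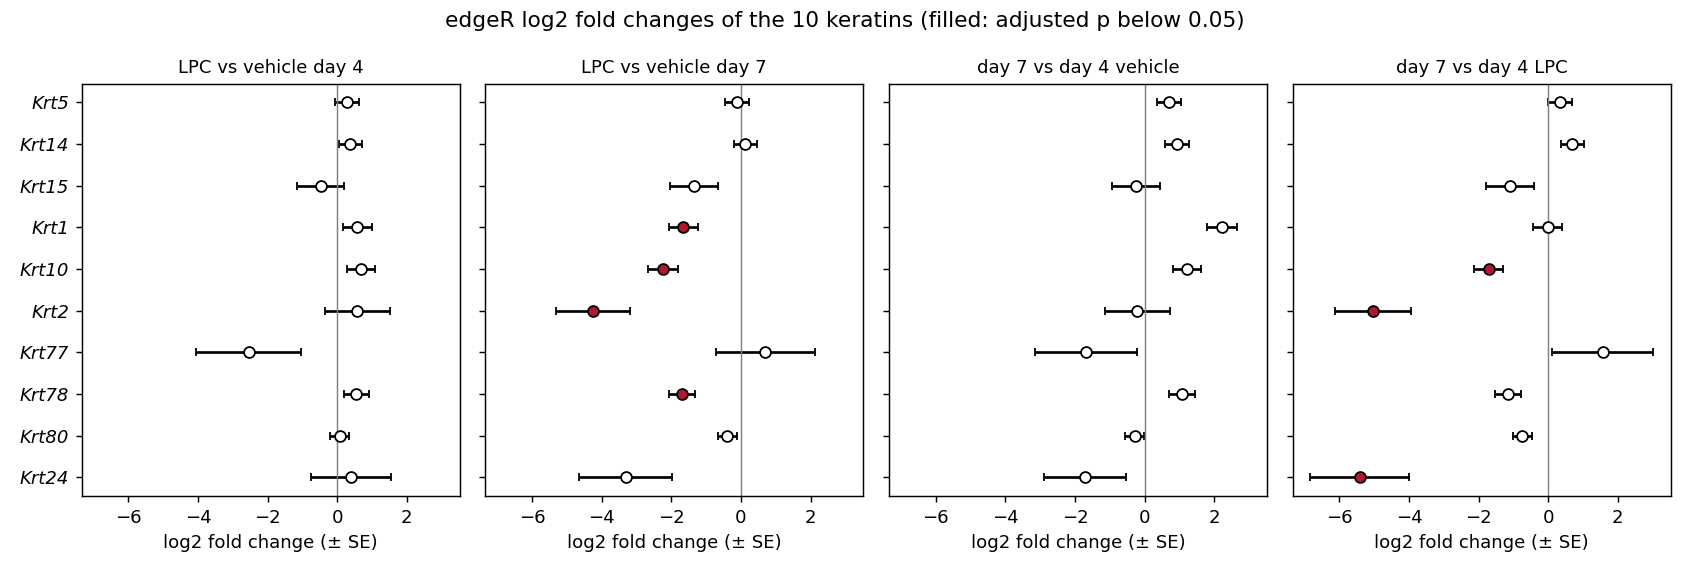
Fitted log2 fold changes of the 10 keratins with their standard errors (horizontal axis) in 4 comparisons, with filled points where the edgeR adjusted p was below 0.05. Filled points are Krt1, Krt10, Krt2 and Krt78 for LPC against vehicle on day 7 and Krt10, Krt2 and Krt24 for day 7 against day 4 in LPC skin, and all of them lie below 0.

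Markers of other cells moved beside these differences. On day 7 the neutrophil score was 2.05 to 4.96 in vehicle and 5.43 to 7.54 in LPC mice without overlap. Of 9 neutrophil genes tested 1 was called higher (Ly6g, by 3.17 ± 0.78 on the log2 scale, edgeR adjusted p = 0.040), where 2.38% of all genes were. Summed over its 9 genes this list reached 215 to 4934 CPM in vehicle and 4514 to 12964 CPM in LPC mice. None of 16 pan-epithelial genes was called (Esrp1 differed by −0.69 ± 0.20 and Marveld2 by −0.79 ± 0.25 on the log2 scale, edgeR adjusted p = 0.067 and 0.090), and their summed CPM was 3182 to 4588 in vehicle and 2547 to 4502 in LPC mice. Muscle genes summed to 3203 to 14732 CPM in vehicle and 522 to 26699 CPM in LPC mice, none of 20 called (Actn3 differed by 1.78 ± 1.37 and Des by 0.69 ± 0.85, edgeR adjusted p = 0.53 and 0.72). The part of these cells in the keratin differences was not tested. LPC mice 2 and 4, the mice high in muscle and macrophage genes, were also left out together, a choice made after seeing the data. This leaves LPC mice 1 and 3, the most alike of their group (correlation of log2 CPM 0.9783), and removes mouse 4, the highest LPC mouse for Krt15 and Krt77. Without mice 2 and 4 Krt10 differed by −2.56 (edgeR adjusted p = 0.0045), Krt15 by −3.50 (0.0013) and Krt77, which was 0.70 with them, by −5.55 (0.042). Krt2 lost its call in that fit (−3.44, 0.063), and 5 members were called among 3376 genes in all, against 604 with all mice.

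Ratios between members within a library do not depend on the library's scaling. On the FPKM scale Krt10 was 0.346, 0.350, 0.388 and 0.959 of Krt14 in vehicle day 7 mice and 0.0340, 0.242, 0.0765 and 0.0669 of it in LPC day 7 mice. The groups did not overlap, and their mean log2 ratios differed by −2.52. The Krt1 to Krt10 ratio was 1.57, 1.22, 1.20 and 1.37 in LPC day 7 mice. It was 1.16, 0.825, 1.17 and 0.259 in vehicle day 7 mice and 0.270 to 0.799 in LPC day 4 mice, both wholly below the LPC day 7 range. Vehicle day 7 mice 1 and 3 lay just below the lowest LPC day 7 mouse, and vehicle day 7 mouse 4 lay furthest below. Krt5 stayed at 0.309 to 0.565 of Krt14 in all 16 libraries, with overlap between the groups in every comparison. These ratios were given no test.

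**Figure D4:**
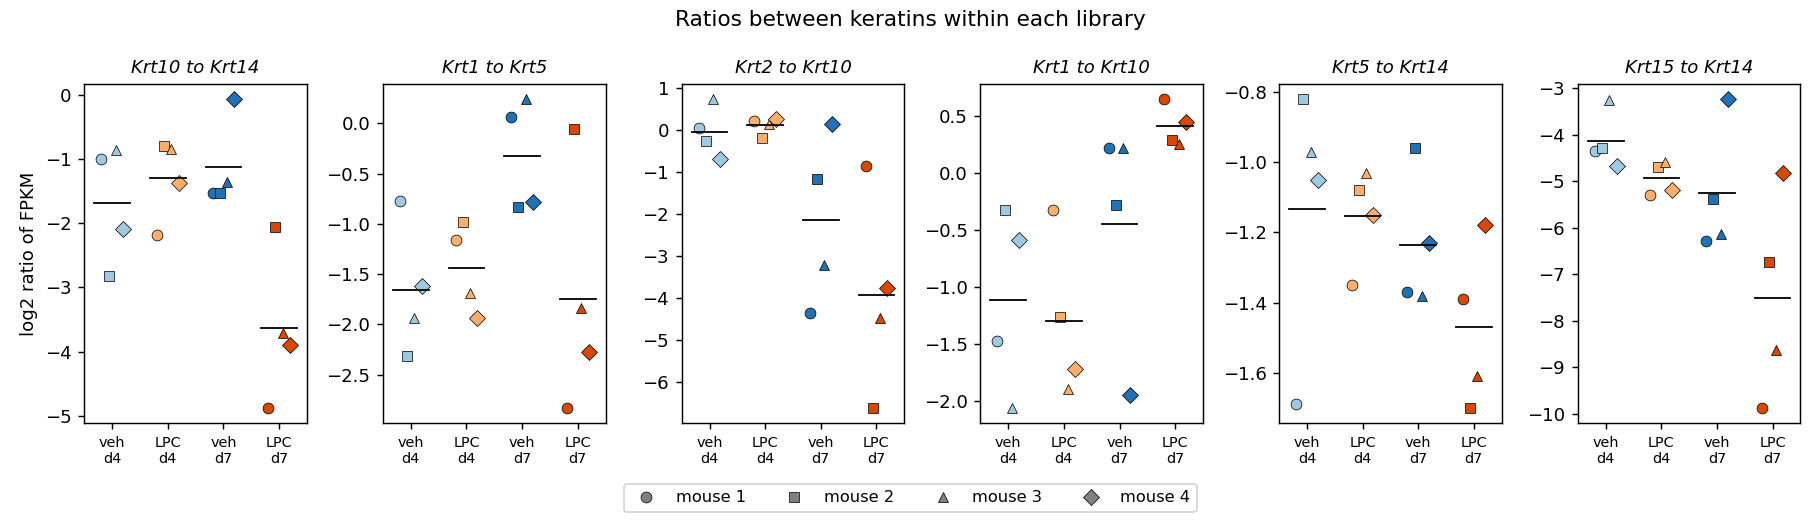
Log2 ratios of FPKM between pairs of keratins (vertical axes) by group, with 1 point per mouse and a bar at the group mean. Krt10 to Krt14 is lower in all 4 LPC day 7 mice than in the 4 vehicle day 7 mice, Krt1 to Krt10 is higher, and Krt5 to Krt14 overlaps between all groups.

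The sum of the type I members exceeded that of the type II members by FPKM in every library, though the chains pair in filaments. The type I to type II ratio was 1.38 ± 0.225 with vehicle and 1.34 ± 0.0960 with LPC on day 4, and 1.46 ± 0.213 with vehicle and 2.19 ± 0.255 with LPC on day 7 (SD, n = 4 each). The LPC day 7 mice, at 1.94 to 2.51, lay above the vehicle day 7 mice at 1.17 to 1.66. With the wound keratins Krt6a and Krt6b (type II) and Krt16 and Krt17 (type I) added, 14 keratins in all, the ratio was 1.38 ± 0.0863 in vehicle day 7 and 1.59 ± 0.0988 in LPC day 7, with overlapping ranges of 1.26 to 1.47 and 1.45 to 1.68.

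From day 4 to day 7 in LPC skin, the 3 suprabasal keratins Krt2, Krt10 and Krt24 fell, 3 of the 10 members, where 4.13% of all genes tested were called lower. Krt2 had 4376, 7548, 9458 and 6860.3 CPM in LPC day 4 mice 1 to 4, all above the 36.7 to 635 CPM of LPC day 7. It fell by 5.03 ± 1.10 on the log2 scale, 32.8-fold (edgeR adjusted p = 0.015), and stayed called with each of the 8 mice left out. Krt10 had 3055, 6948, 6918 and 4633 CPM on day 4 and fell by 1.71 ± 0.41 on the log2 scale (edgeR adjusted p = 0.021), without overlap. With single mice left out it was called in 5 of 8 cases, and the highest adjusted p was 0.063 (without LPC day 4 mice 2 or 3 or LPC day 7 mouse 4 it was above 0.05).

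Krt24 had 27.6, 87.6, 130.1 and 23.8 CPM on day 4 and at most 3.43 CPM on day 7 in LPC skin. It fell by 5.42 ± 1.43 on the log2 scale (edgeR adjusted p = 0.030), called in 4 of 8 single omissions and lost without LPC day 4 mice 2 or 3 or LPC day 7 mice 2 or 4 (adjusted p up to 0.075). LPC day 7 mouse 2, at 0.1004 CPM, lay below the 0.149 to 0.160 CPM that a count of 0 allows. The size of the Krt24 fall is therefore uncertain. Groups did not overlap for 4 members in the lower direction, Krt10, Krt2, Krt24 and Krt78, against 8.22% of all genes. Krt78 had 55.3, 80.2, 85.2 and 46.6 CPM on day 4, a log2 difference of −1.16 ± 0.37 to day 7 (edgeR adjusted p = 0.055). Krt1 differed by −0.02 ± 0.42, Krt5 by 0.33 ± 0.34 and Krt14 by 0.69 ± 0.33 on the log2 scale over the same days, none of them called. Other settings also ended calls. Krt10 was not called over this interval with pan-epithelial scaling (−1.09, adjusted p = 0.13), only the compared groups (0.051) or the muscle (0.063) or hair follicle score (0.050) as covariate. Krt24 was not called with limma-voom (0.11) or with the muscle (0.083) or hair follicle covariate (0.064), and without LPC day 7 mice 2 and 4 neither Krt24 (0.095) nor Krt2 (−4.28, 0.051) was. Krt15 was called without LPC day 7 mouse 4 (−2.66, adjusted p = 0.011), against −1.11 ± 0.69 with it (0.28).

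Genes of other cells moved over the same interval in LPC skin. Of 10 macrophage genes 4 were called higher (Fcgr1, Cd68, Adgre1 and Lyz2), where 6.87% of all genes were, and their summed level was 207 to 414 CPM on day 4 and 313 to 2307 CPM on day 7. Of 9 neutrophil genes 2 were called higher (Csf3r and Cxcr2), from a sum of 437 to 2768 CPM to one of 4514 to 12964 CPM. Of 8 fibroblast genes 2 were called higher (Fbln1 and Col3a1). Of 16 pan-epithelial genes 3 were called lower (Marveld2, Esrp1 and Prss8), where 4.13% of all genes were, with pan-epithelial sums of 3392 to 4374 CPM on day 4 and 2547 to 4502 CPM on day 7. Among 10 sebaceous gland genes, Far2 (−2.02 ± 0.44), Awat1 (−2.14 ± 0.51) and Elovl3 (−1.68 ± 0.42 on the log2 scale) were called lower and none higher. Their list summed to 2679 to 6901 CPM on day 4 and 1269 to 4090 CPM on day 7. The part of these cells in the keratin values was not tested.

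In vehicle skin the same interval gave no call among the 10 members, and 0% of all genes were called by edgeR's quasi-likelihood test. At an unadjusted p below 0.05 there were 4 members and 2050 of all genes. DESeq2 called 1 member (Krt1) among 238 genes in all, and limma-voom with sample weights called 6 members among 2086 genes in all. Krt1 had 2079, 1604, 1235 and 1752 CPM on day 4, all below the 2437 to 11565 CPM of day 7, a log2 difference of 2.22 ± 0.44 (edgeR adjusted p = 0.16) that was called without vehicle day 7 mouse 4 (2.52, adjusted p = 0.016). Krt10 had 4965, 1722, 4442 and 2272 CPM on day 4, also below every day 7 mouse, a log2 difference of 1.22 ± 0.40 (edgeR adjusted p = 0.25). These were the 2 members whose vehicle groups did not overlap in the higher direction, against 3.45% of all genes.

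On day 4, LPC and vehicle skin differed in no member by edgeR's test, where 0.139% of all genes were called. No member reached an unadjusted p below 0.05, against 3025 of all genes, and neither DESeq2 nor limma-voom called one. The median log2 difference was 0.39 over the members and 0.00 over all genes. Krt10 differed by 0.69 ± 0.40 and Krt77 by −2.54 ± 1.51 on the log2 scale, the latter with 211, 95.8, 19.6 and 200.3 CPM in vehicle and 64.5, 4.59, 15.7 and 5.85 CPM in LPC mice. Vehicle day 4 mice were high in muscle RNA, 4486 to 46473 CPM over 20 genes against 384 to 4329 CPM in LPC mice (none called; Mb differed by −4.04 ± 0.89 and Tnni2 by −4.00 ± 0.99, edgeR adjusted p = 0.058 and 0.066), and with the muscle score as a covariate no member was called either. The pan-epithelial score was also higher with LPC on day 4, 6.22 to 6.40 against 5.60 to 6.18 without overlap, and scaling to those genes moved the median of all genes to −0.38. Its part in the members' median of 0.39 was not tested further.

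The interaction of treatment and day, which tests whether LPC acted differently at the later time, was called for no member and for 0% of all genes by edgeR. At an unadjusted p below 0.05 there were 4 members and 2674 of all genes, DESeq2 called 4 members among 585 genes in all and limma-voom 1 among 10 genes. The value was −2.93 ± 0.58 for Krt10 (edgeR adjusted p = 0.11), −2.24 ± 0.52 for Krt78 (0.14), −2.24 ± 0.60 for Krt1 (0.16) and −4.82 ± 1.38 for Krt2 (0.17), each on the log2 scale. It was called for Krt10 without vehicle day 4 mouse 3 (−3.08, adjusted p = 0.036). The day 7 result for a keratin is therefore not shown to differ from its day 4 result in the fit reported.

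The wound keratins were read in the same libraries, though Krt17 is also among the follicle stem cell and infundibulum genes. Their score, the mean log2 CPM of Krt6a, Krt6b, Krt16 and Krt17, was 9.79, 11.29, 8.40 and 10.82 in vehicle day 4 mice, 11.15, 10.41, 9.85 and 10.57 in LPC day 4 mice, 12.19, 11.62, 12.02 and 8.93 in vehicle day 7 mice and 12.96, 11.61, 12.63 and 12.30 in LPC day 7 mice. Krt6a and Krt6b are near-identical copies, so the division of reads between them is uncertain. None of the 4 genes was called for LPC against vehicle on day 7; Krt17 differed by 0.99 ± 0.43 and Krt6a by 0.86 ± 0.59 on the log2 scale (edgeR adjusted p = 0.21 and 0.46). In LPC skin 1 of the 4 was called higher on day 7 than on day 4, where 6.87% of all genes were. It was Krt6a, by 2.25 ± 0.61 (edgeR adjusted p = 0.033). Krt6b differed by 3.05 ± 1.04 (0.069) and Krt16 by 1.38 ± 0.58 (0.12), not called, and all day 7 mice were above all day 4 mice for both. Krt17 differed by 0.87 ± 0.43 (0.18), with overlap.

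The vehicle mice with the lowest wound score, mouse 3 on day 4 and mouse 4 on day 7, had the highest Krt2 of their groups, 9122 and 11000.5 CPM. In vehicle day 7 skin Krt1 and Krt2 ran in nearly opposite order over the 4 mice, with Krt1 highest in mouse 3 and then mice 1, 2 and 4, and Krt2 highest in mouse 4 and then mice 2, 3 and 1. On day 7, mouse 2 of each group had nearly the same wound score, 11.62 for vehicle and 11.61 for LPC. Krt1 was 6318 and 4193 CPM in these mice. Vehicle mice 1 and 3, with wound scores of 12.19 and 12.02, had 10743 and 11565 CPM of Krt1. LPC mice 1, 3 and 4 all scored higher, at 12.96, 12.63 and 12.30, and had 1711, 2262 and 1716 CPM. Vehicle mouse 4, with the lowest score of 8.93, had 2437 CPM. The part of the wound state in the Krt1 difference was not tested. These are descriptions over 4 mice per group, and no correlation was tested.

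**Figure D5:**
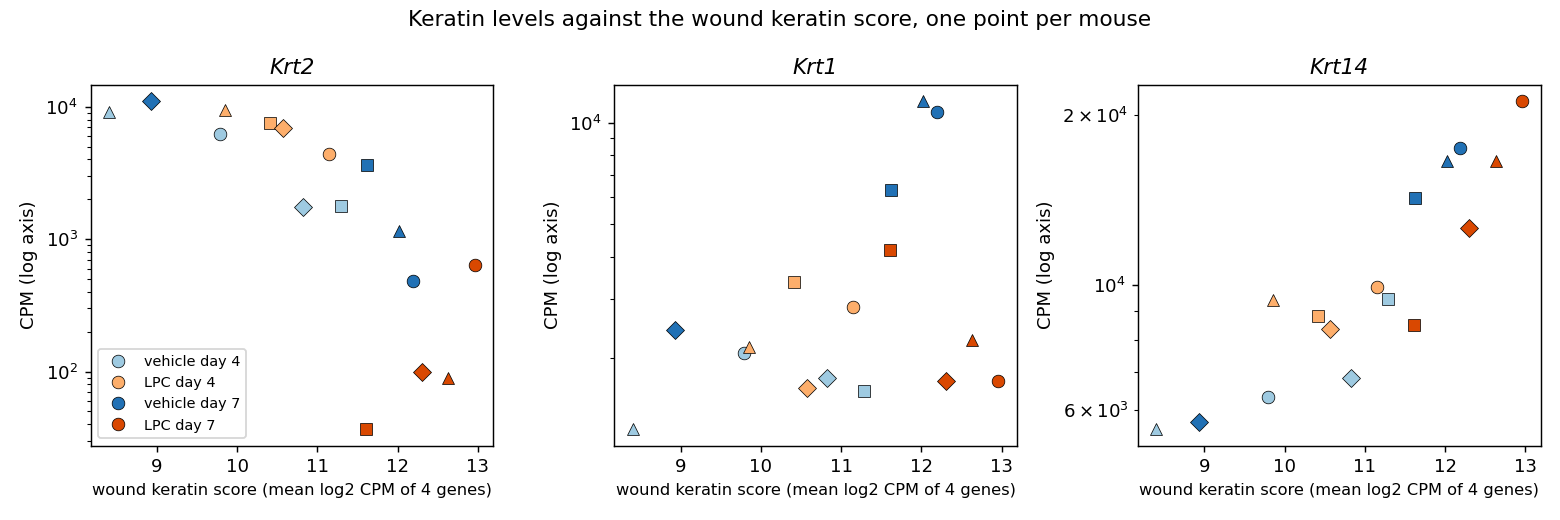
CPM of Krt2, Krt1 and Krt14 (log axes) against the wound keratin score, the mean log2 CPM of Krt6a, Krt6b, Krt16 and Krt17, with 1 point per mouse, coloured by group and shaped by mouse number (circle, square, triangle and diamond for mice 1 to 4). Krt2 is at least 9122 CPM in the vehicle mice of lowest score and at most 635 CPM in LPC day 7 mice. At scores above 12 Krt1 is higher in the vehicle day 7 mice than in the LPC day 7 mice, whose scores there are all higher.

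Proteins that anchor or bundle keratin filaments were compared from a list of 15 genes. On day 7, 3 of the 15 were lower in LPC skin, where 1.44% of all genes were, and none was higher. Flg, filaggrin, which bundles keratin filaments in the cornified layer, had 863 to 1158 CPM in vehicle and 47.1 to 325 CPM in LPC mice, a fall of 2.62 ± 0.65 on the log2 scale (edgeR adjusted p = 0.040). Hrnr, hornerin, a relative of filaggrin, fell by 2.14 ± 0.42 (0.018), and Ppl, periplakin, which links keratins to desmosomes and the cornified envelope, fell by 0.83 ± 0.19 (0.030). In LPC skin from day 4 to day 7, Hrnr fell by 1.45 ± 0.41 and Dst, which ties basal keratins to hemidesmosomes, by 0.80 ± 0.21 (edgeR adjusted p = 0.036 and 0.028). Over that interval 4.13% of all genes were called lower. None was called for LPC against vehicle on day 4, where Dsp differed by 0.60 ± 0.20 and Itgb4 by 0.86 ± 0.33 on the log2 scale (edgeR adjusted p = 0.12 and 0.17). None was called in vehicle skin over time, where Pkp1 differed by 0.79 ± 0.23 and Dsp by 0.63 ± 0.20 (edgeR adjusted p = 0.21 and 0.24).

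Of 26 regulators of epidermal layers, 1 was higher and 2 were lower in LPC skin on day 7, where 2.38% of all genes were called higher and 1.44% lower. Cebpb, a transcription factor of suprabasal keratinocytes that inflammation also induces, had 151 to 202 CPM in vehicle and 233 to 665 CPM in LPC mice and rose by 1.03 ± 0.26 on the log2 scale (edgeR adjusted p = 0.040). Tfap2b, an AP-2 factor, fell by 1.25 ± 0.27 (0.025), and Grhl1, a grainyhead factor of desmosome and barrier genes, fell by 0.67 ± 0.17 (0.043). In LPC skin over time, Cebpb again rose and Tfap2b, Grhl1 and the Notch ligand Jag2 fell. Over that interval 6.87% of all genes were called higher and 4.13% lower. The basal regulator Trp63, named after its values were seen, had 151 to 284 CPM in vehicle and 149 to 407 CPM in LPC mice on day 7, with overlapping groups.

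Other keratins were low in these libraries or not called. None of 8 simple and mucosal epithelial keratins was called on day 7, where Krt18 differed by 2.04 ± 0.71 (edgeR adjusted p = 0.12) and Krt19 by −1.23 ± 0.58 (0.26) on the log2 scale. Krt8, a simple epithelial keratin, fell from day 4 to day 7 in LPC skin by 2.37 ± 0.53 (edgeR adjusted p = 0.016), from 3.68 to 5.04 CPM down to 0.662 to 1.10 CPM. Of 8 other epidermal and follicular keratins tested, 1 was lower in LPC skin on day 7, where 1.44% of all genes were called lower. It was Krt12, known as the corneal keratin, at 0.515 to 1.42 CPM in vehicle and 0 to 0.363 CPM in LPC mice, a fall of 2.80 ± 0.64 on the log2 scale (edgeR adjusted p = 0.029). Its LPC levels lie near the 0.149 to 0.160 CPM that a count of 0 allows, so the size of the fall is uncertain. None of 14 proliferation genes was called on day 7, where Mki67 differed by −0.55 ± 0.38 and Mcm2 by 0.26 ± 0.27 on the log2 scale (edgeR adjusted p = 0.47 and 0.67).

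The genes whose profile over the 16 libraries was nearest to a member were sought among 13836 genes, by the root mean square difference of log2 CPM centred on each gene's mean. For Krt10 they were Gm11992, Oas1f and Pou2f3 at 0.47 each, 9930012K11Rik at 0.50 and Calm4 at 0.51, where the median gene stood at 1.09 and the nearest member, Krt78, at 0.36. For Krt2 they were Lce1l at 1.12, Calm5 at 1.17, Cyp2b23 at 1.30, Adh6a at 1.31 and Lce1k at 1.34, where the median gene stood at 2.59 and the nearest member, Krt24, at 1.35. Lce1l and Lce1k encode late cornified envelope proteins. For Krt14 they were Mpzl2 at 0.19, Ass1 at 0.20, Ptgfrn at 0.21, Rrm1 at 0.22 and Galnt6 at 0.23, where the median gene stood at 0.69 and Krt5 at 0.25. A gene of constant level would stand at 1.03 from Krt10, 2.57 from Krt2 and 0.59 from Krt14, so the median gene is a weak yardstick. Likeness over these libraries includes differences between groups and between mice alike.

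The spread between mice was wide for these genes. The pooled within-group SD of log2 CPM was 0.41 for Krt80, 0.50 for Krt14, 0.51 for Krt5, 0.57 for Krt78, 0.60 for Krt10, 0.66 for Krt1, 1.04 for Krt15, 1.47 for Krt2, 1.99 for Krt24 and 2.51 for Krt77. The median of the 10 members was 0.63, against 0.34 over all genes tested.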

How the data were processed

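Ear skin RNA of 16 mice, 4 per group, was sequenced, and groups were read from the sample titles, because the deposited files' names carry days 3 and 6 where the titles have 4 and 7. Per the labels' protocols, reads were aligned with Bowtie2 to GRCm38 and quantified by RSEM, and the submitters' processing notes name the same aligner and build. Software versions were not stated in any source used here, nor was a strand setting. In each deposited table the authors list expected counts, which RSEM estimates and which need not be whole because it shares reads among similar genes such as keratin paralogs, and FPKM values, which the authors normalized to transcript length and mapped fragments. A gene missing from a library was taken as 0.

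Expected counts were rounded, filtered with filterByExpr and fitted over all 16 libraries with edgeR 4.0.16 in R 4.3.3 (TMM factors 0.836 to 1.107, 12 residual degrees of freedom, common dispersion 0.122, quasi-likelihood test, Benjamini-Hochberg adjustment over all genes tested, threshold 0.05). CPM and log2 CPM (prior count 2) were computed here from the deposited expected counts and the library totals scaled by the TMM factors. Library totals limit precision for the lowest members only, since a count of 0 allows up to 3 counts for counting error alone. These are 0.149 to 0.160 CPM of the library totals before TMM scaling. DESeq2 1.42.0, limma-voom (limma 3.58.1), log2(FPKM + 0.1) and log2(FPKM + 1) with limma, other scalings and filters, covariates and omitted mice were the alternatives. Scripts were tested on simulated data with known changes.

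All 10 members are named. Of other lists, every called gene was named, up to 4 by smallest p, and where none was called the 2 with the smallest p, where the text gives a list's count for a comparison. The members and lists were chosen with earlier results of these data known. Each library is 1 mouse, so p-values measure the spread between mice. Within groups the correlation of log2 CPM was 0.8913 to 0.9841, and no 2 libraries differed by as little as sampling noise. The same mouse number in different groups means different mice, and the correlations of their deviations ran from −0.596 to 0.539. They were 0.114, 0.099, 0.294 and 0.539 between the day 4 groups, so that not every pair passed 0.1, and of mixed sign in each of the 5 other pairs of groups; the numbers were therefore not used as pairs. Gene positions are from the GENCODE M21 annotation of GRCm38.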

Additional observations from a re-analysis of the deposited data

Results flagged for a closer look

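Krt5, the basal type II keratin, was far lower in vehicle day 7 mouse 4, at 3703 CPM, than in the other vehicle day 7 mice, at 8678 to 9960.5 CPM. The gap to the nearest mouse was 0.861 of the group's whole range, above the critical value of 0.829 for 4 samples. This was 1 of 40 combinations of a keratin and a group that were examined, and chance alone flags about 1 in 20. The same mouse had the lowest Krt14 and Krt1 and the highest Krt2 of its group, and the lowest wound keratin and neutrophil scores, 8.93 and 2.05. The part of these in the Krt5 value was not tested.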

How the results depend on the processing

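For LPC against vehicle on day 7, 4 members were called in the fit reported, among 604 genes in all. The number of members was 0 when libraries were scaled to the pan-epithelial genes (36 genes in all) and 0 with only the compared groups in the fit (45). It was 2 with limma-voom (210) and 2 without vehicle day 4 mouse 3 and vehicle day 7 mouse 4 (183). With single mice left out it was 1 to 3 (111 to 697). The mouse number is not a pairing here, since different mice share it. In 4 of 24 comparisons a library deviated most like the library of its own number in another group. With the number as a replicate block the count of members for day 7 was 2 (351 genes in all). From day 4 to day 7 in LPC skin, 3 members were called as reported, among 1736 genes in all. The number of members was 5 with DESeq2 (3073 genes in all), and with the muscle or hair follicle score as covariate it was 1 (902) and 1 (837). With single mice left out it was 1 to 3 (518 to 2207). In vehicle skin over time, 0 members and 0 genes in all were called as reported. The number of members was 1 with DESeq2 (238 genes in all) and 6 with limma-voom (2086). With single mice left out it was 0 to 1 (0 to 205). For the interaction, 0 members and 0 genes in all were called as reported. The number of members was 4 with DESeq2 (585 genes in all), 1 with limma-voom (10) and 2 without LPC day 7 mice 2 and 4 (68). With single mice left out it was 0 to 1 (0 to 214). On day 4 it was 0 in each setting run. The omissions of pairs of mice were chosen after seeing the data. The causes of these shifts were not tested.

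Krt10 on day 7 was called in 20 of 22 settings, from −2.69 to −1.99, Krt78 in 14, and Krt1 and Krt2 in 10 each. Scaling to pan-epithelial genes moved the median log2 difference of all genes from 0.00 to −0.38 on day 4, from 0.03 to 0.45 over time in LPC skin and from 0.00 to 0.45 for the interaction. Under it Krt10 on day 7 was −1.99 (adjusted p = 0.085), and in LPC skin over time 1 member was called higher (Krt14, 0.97) and 2 lower. Genes called among all tested ranged from 0 to 1606 for day 4 (22 as reported), 36 to 3376 for day 7 (604), 0 to 2086 for vehicle (0), 518 to 3073 for LPC over time (1736) and 0 to 585 for the interaction (0).

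Signs turned in 49 of the member values, none of them called as reported. On day 4, pan-epithelial scaling gave −0.10 for Krt5, −0.00 for Krt14 and −0.29 for Krt80, and the muscle covariate −0.04 for Krt5, 0.41 for Krt15, −0.91 for Krt2, 2.39 for Krt77, −0.11 for Krt80 and −0.56 for Krt24. The hair follicle covariate gave 0.06 for Krt15 on day 4 and 0.79, 0.27 and 0.16 for Krt15, Krt2 and Krt80 in vehicle skin over time. On day 7, limma-voom gave −0.30 for Krt14 and −1.72 for Krt77, log2(FPKM + 0.1) and log2(FPKM + 1) gave −1.50 and −0.94 for Krt77, the muscle covariate −0.28 for Krt77, and Krt14 was −0.15 without the 2 vehicle mice. Without LPC day 7 mice 2 and 4, Krt5 was 0.22 and Krt77 −5.55 on day 7, Krt77 −4.70 over time, and the interaction 0.13 for Krt14 and −3.00 for Krt77. Pan-epithelial scaling gave 0.59 for Krt1 over time in LPC skin and 0.06 for the Krt14 interaction. Krt77 over time in LPC skin was −0.84 and −0.31 on the log2 FPKM scales and −2.71 with the muscle covariate, which gave −2.67 for its interaction. With single mice left out, the values ran from −0.36 to 0.09 for Krt5, −0.13 to 0.30 for Krt14 and −2.85 to 1.26 for Krt77 on day 7, −0.18 to 0.23 for Krt80 and −0.14 to 0.82 for Krt24 on day 4, −0.40 to 0.16 for Krt1 and −1.99 to 2.94 for Krt77 over time in LPC skin, −1.42 to 0.31 for Krt2 in vehicle skin and −0.31 to 4.62 for the Krt77 interaction.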
